A study of Mus musculus with 22 samples.

Results

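Aldh1a1, Aldh1a2, Aldh1a3 and Aldh1b1, which encode enzymes that oxidise retinaldehyde, were examined together with Aldh1a7, a rodent paralog of Aldh1a1. These are 5 of the 37991 genes listed in the RNA-seq count files. The members were chosen by the RNA counts of Aldh1a7, which differed between the genotypes in these same libraries, so its RNA difference is given as a description and carries no test. RNA was counted in livers of embryos at E14.5 (days of embryonic development), with 3 wild-type and 3 mutant libraries. CpG methylation was measured by whole genome bisulphite sequencing in whole embryos at E10.5 and in livers at E14.5 and E18.5, with 2 wild-type and 2 mutant libraries in each of the 3 datasets. Another 4 samples, of H3K4me1 ChIP-seq in E14.5 liver, were not analysed here.

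Every group shared 1 genetic background, the FVB/NJ line called Line3, in which many copies of a GFP reporter are integrated. The human alpha-globin promoter, together with the HS-40 enhancer, drives the reporter in erythroid cells. Wild-type embryos were Rlf+/+, and mutant embryos were homozygous for MommeD28, a null allele of the zinc finger gene Rlf recovered after ENU mutagenesis. By the labels the E10.5 embryos were male, the E18.5 livers female, and the E14.5 methylation livers male (replicate 1) or female (replicate 2). In the RNA-seq of either genotype, replicates 1 and 2 were male and replicate 3 was female. Between E10.5 embryos and E14.5 livers tissue and stage therefore cannot be told apart, and the share of males differed as well. The E14.5 and E18.5 datasets were both of liver and differed in stage, in the share of males and, as the study states, in cell type make-up. These differences cannot be told apart either. The livers were bulk tissue, in which fewer cells of a type and less RNA per cell cannot be told apart.

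Retinoic acid is made from retinol in a pair of oxidations, the first by alcohol and retinol dehydrogenases and the second, to the acid, by cytosolic aldehyde dehydrogenases. Retinoic acid binds nuclear receptors that act on genes of patterning and differentiation, and cytochromes of the Cyp26 family break it down. Aldh1a2 supplies most retinoic acid of the early embryo, Aldh1a3 acts mainly in eye and nasal tissue, and Aldh1a1 is abundant in adult liver. Aldh1b1 encodes a mitochondrial enzyme of wider substrate range, and the product of Aldh1a7 is known for little activity on retinaldehyde.

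Aldh1a1 and Aldh1a7 lie on chromosome 19 of NCBIM37 (mm9), at chr19:20676451-20717952 on the plus strand and chr19:20767443-20802052 on the minus strand. They run towards each other with 49.5 kb between their ends, and each has 13 exons. Aldh1a2 lies at chr9:71063596-71144050 (plus), Aldh1a3 at chr7:73535778-73572403 (minus) and Aldh1b1 at chr4:45811894-45817476 (plus). No other annotated gene overlaps any of the 5.

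The coding sequences of Aldh1a1 and Aldh1a7 were identical at 91.6% of 1506 aligned bases, whereas the other pairs of members shared between 64.4% and 69.8%. Exon 9, a coding exon of 185 bases in both genes and the longest internal exon of Aldh1a7, is shown. It holds letters by which a read can be placed in one paralog or the other. Its copies were identical at 84.3% of bases, so they differ more than the coding sequences as a whole. Capitals mark the 29 bases at which they differ, at chr19:20782640-20782824 (minus) for Aldh1a7 and chr19:20705156-20705340 (plus) for Aldh1a1.
Aldh1a7: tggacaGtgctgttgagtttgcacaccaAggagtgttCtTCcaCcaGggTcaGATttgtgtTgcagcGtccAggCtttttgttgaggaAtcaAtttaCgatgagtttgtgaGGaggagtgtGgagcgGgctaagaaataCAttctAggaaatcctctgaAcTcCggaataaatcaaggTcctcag
Aldh1a1: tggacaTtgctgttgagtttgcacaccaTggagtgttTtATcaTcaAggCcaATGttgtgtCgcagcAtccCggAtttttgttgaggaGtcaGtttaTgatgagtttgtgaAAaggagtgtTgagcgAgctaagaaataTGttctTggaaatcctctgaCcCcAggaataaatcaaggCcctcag
Of the windows of 50 bases, the read length, along the Aldh1a7 transcript, 7.49% were identical in Aldh1a1 and 30.7% lay within 2 mismatches of it. The counts of this pair are therefore less certain than those of Aldh1a2, Aldh1a3 and Aldh1b1, for which both shares were 0%.

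The start sites differ in CpG content. The 250 bases before the annotated start are shown for 3 members, with every CpG in capitals, since methylation was measured at these CpGs. They lie at chr19:20802053-20802302 (minus), chr19:20676201-20676450 (plus) and chr9:71063346-71063595 (plus).
Aldh1a7: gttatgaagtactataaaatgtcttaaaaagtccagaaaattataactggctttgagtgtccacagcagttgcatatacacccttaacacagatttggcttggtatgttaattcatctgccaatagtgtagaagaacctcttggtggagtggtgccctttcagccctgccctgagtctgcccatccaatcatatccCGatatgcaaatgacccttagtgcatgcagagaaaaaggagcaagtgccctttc
Aldh1a1: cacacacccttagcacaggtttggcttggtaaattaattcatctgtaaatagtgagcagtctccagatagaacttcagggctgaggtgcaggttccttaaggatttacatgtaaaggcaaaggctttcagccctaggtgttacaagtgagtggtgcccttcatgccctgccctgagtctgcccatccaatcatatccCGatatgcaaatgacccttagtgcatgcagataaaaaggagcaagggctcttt
Aldh1a2: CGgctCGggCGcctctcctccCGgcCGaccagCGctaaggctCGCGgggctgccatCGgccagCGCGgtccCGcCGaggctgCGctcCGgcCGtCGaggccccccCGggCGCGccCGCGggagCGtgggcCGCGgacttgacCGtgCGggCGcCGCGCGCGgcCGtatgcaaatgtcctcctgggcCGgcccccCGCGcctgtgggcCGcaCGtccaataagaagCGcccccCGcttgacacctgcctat
Aldh1a1 and Aldh1a7 each held 1 CpG there, inside a run of 65 identical bases, and Aldh1a2 held 40. Aldh1a3 held 22 and Aldh1b1 held 4, against a median of 8 over 22367 genes. Within 1 kb to either side of the start the reference held 9 CpGs at Aldh1a7, 15 at Aldh1a1, 42 at Aldh1b1, 102 at Aldh1a3 and 156 at Aldh1a2, against a median of 61.

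The RNA of Aldh1a7 was about doubled in the mutant livers. The wild-type libraries held 66, 77 and 69 reads and the mutant libraries 123, 125 and 161. Scaled to a common library size, as CPM, these counts were 5.04, 5.09 and 4.84 CPM in wild-type liver and 9.55, 9.02 and 11.3 CPM in mutant liver. Every mutant library lay above every wild-type library, and the wild-type values were close together (4.99 ± 0.131 CPM against 9.96 ± 1.196 CPM, mean ± SD, n = 3 each). How often the genotypes separate in this way over all genes was not counted, so the separation is a description. The log2 fold change of the edgeR fit was 0.998 ± 0.138 (SE), and it lay between 0.90 and 1.07 when each library was left out in turn. The study lists Aldh1a7 among the genes of its real-time RT-PCR, done in E14.5 livers of MommeD34, another null line of Rlf. Those values are not part of this report.

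**Figure D1:**
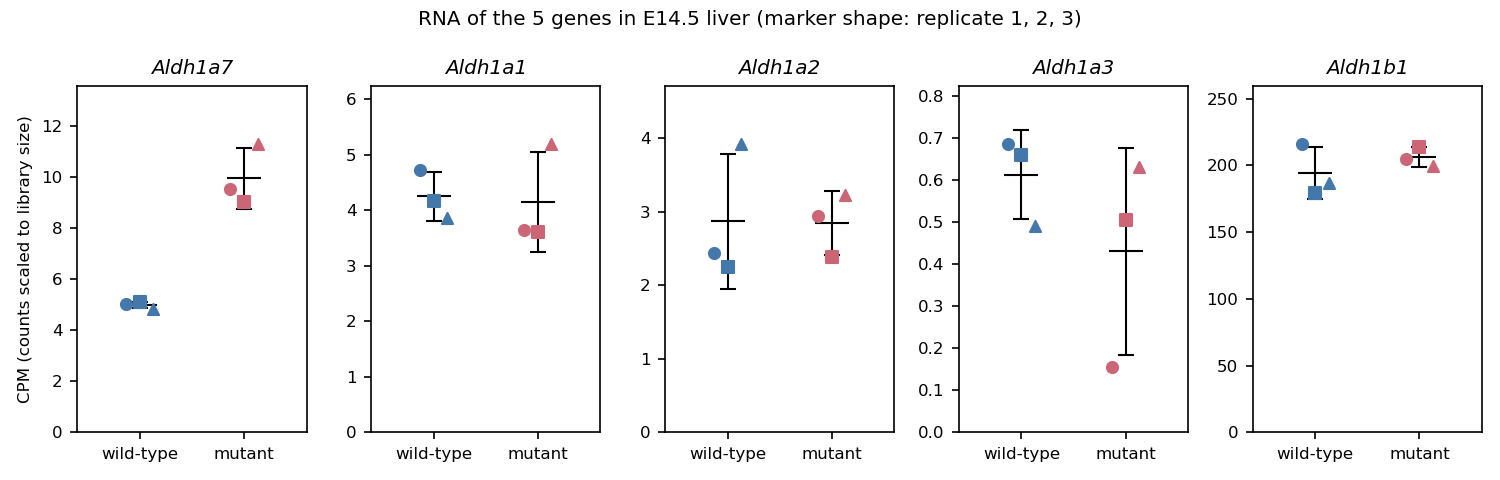
RNA of the 5 genes in E14.5 liver, in CPM on axes that start at 0 and differ between panels, with one point per library (circle, square and triangle for replicates 1, 2 and 3) and bars for the mean and SD of 3. The mutant libraries lie above all wild-type libraries for Aldh1a7, and the genotypes overlap for the other 4 genes.

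The RNA of its neighbour and paralog Aldh1a1 did not pass the test. Its counts were 62, 63 and 55 in wild-type liver and 47, 50 and 74 in mutant liver. The mutant range spanned the wild-type range, with replicates 1 and 2 below it and replicate 3 above it. The log2 fold change was -0.03 ± 0.19 (SE), with an adjusted p of 0.967 by edgeR's quasi-likelihood test over all genes. The ratio of Aldh1a7 to Aldh1a1 counts was 1.06, 1.22 and 1.25 in the wild-type libraries and 2.62, 2.50 and 2.18 in the mutant libraries.

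Aldh1a2, the main enzyme of the early embryo, was counted at 32, 34 and 56 reads in wild-type and 38, 33 and 46 reads in mutant liver. In both genotypes the female replicate 3 was the highest. The log2 fold change was -0.01 ± 0.25 (SE), with an adjusted p of 0.992. Aldh1a3 was counted at 9, 10 and 7 reads in wild-type and 2, 7 and 9 reads in mutant liver, which was under the filter on low counts. Fitted with no filter it had a log2 fold change of -0.48 ± 0.52 (SE, adjusted p = 0.730 by edgeR), an error that leaves room for a difference of either sign. The mitochondrial Aldh1b1 had 2835, 2720 and 2669 reads in wild-type and 2643, 2966 and 2839 reads in mutant liver. Its groups overlapped, and its log2 fold change of 0.08 ± 0.08 (SE) did not pass (adjusted p = 0.665).

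Over all genes, 197 of 14183 genes tested passed an adjusted p of 0.05 (1.39%), 99 of them higher and 98 lower in the mutant. With the replicate number as a block the count was 460, and without mutant replicate 1 it was 66. None of Aldh1a1, Aldh1a2 and Aldh1b1 passed, and Aldh1a7 is not counted, as it had chosen the set. The median log2 fold change was -0.01 over these 3 genes and -0.00 over all genes tested.

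Per kilobase of exon, Aldh1b1 was by far the most abundant member in E14.5 liver. Its level was 84.6 ± 8.41 RPKM (CPM per kilobase of exon) in wild-type and 89.7 ± 3.22 RPKM in mutant liver (mean ± SD, n = 3). Aldh1a7 followed at 2.41 ± 0.0632 RPKM in wild-type and 4.82 ± 0.579 RPKM in mutant liver. Aldh1a1 stood at 2.07 ± 0.216 and 2.02 ± 0.441 RPKM, Aldh1a2 at 1.27 ± 0.406 and 1.26 ± 0.191 RPKM, and Aldh1a3 at 0.133 ± 0.0230 and 0.0933 ± 0.0535 RPKM. Neighbours in this order did not overlap within 1 SD of their means in either genotype, and the closest were Aldh1a7 and Aldh1a1 in wild-type liver. Aldh1b1 made up between 90.7% and 94.4% of the summed CPM of the 5 genes in each library.

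Among the other aldehyde dehydrogenases 1 of 13 tested genes (15 listed) passed. This was Aldh8a1, a liver and kidney enzyme known to oxidise cis-retinaldehyde, with 606, 565 and 495 reads in wild-type and 290, 308 and 313 reads in mutant liver. It fell by 0.82 ± 0.10 (SE) on the log2 scale (adjusted p = 0.0026), with every mutant library below every wild-type library. The genotypes did not overlap in 4 of the 13 tested genes of this list, so such a separation is not particular to Aldh8a1. The call was kept without each library in turn, with adjusted p up to 0.0199. The most abundant genes of the list per kilobase, Aldh9a1 and Aldh2, had log2 fold changes of 0.00 ± 0.06 and -0.04 ± 0.07 (SE), and the median of the list was -0.04.

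Of 18 tested retinol and retinaldehyde oxidoreductases (24 listed) 1 rose and 1 fell. Adh1, a class of alcohol dehydrogenase that oxidises retinol, was counted at 119, 144 and 140 reads in wild-type and 255, 334 and 214 reads in mutant liver. It rose by a log2 fold change of 1.05 ± 0.16 (SE, adjusted p = 0.00682), and the call was kept without each library in turn. Adh7, another retinol-oxidising alcohol dehydrogenase, had 15, 13 and 13 reads in wild-type and 2, 2 and 5 reads in mutant liver. It fell by 2.14 ± 0.45 (SE, adjusted p = 0.0400), but the call was lost on leaving out any 1 of the 6 libraries (adjusted p between 0.0543 and 0.163). The most abundant, Adh5 and Dhrs4, had log2 fold changes of 0.01 ± 0.06 and -0.06 ± 0.06 (SE). The median of the list was 0.05.

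None of the other pathway lists held a gene that passed in edgeR's test. The 15 tested genes of retinoid binding, transport and storage (18 listed) had a median log2 fold change of -0.02, and their most abundant members, Rbp4 (the plasma retinol carrier) and Ttr (its partner), stood at 0.17 ± 0.07 and 0.03 ± 0.10 (SE). The 3 tested genes of retinoic acid breakdown (7 listed) had a median of 0.16, with Ugt2b34 at 0.16 ± 0.06 and Cyp3a13 at 0.33 ± 0.27, and Cyp26a1, Cyp26b1 and Cyp26c1 were under the filter. The 12 tested receptors and coregulators (14 listed) had a median of 0.12, with Rxra at -0.11 ± 0.06 and Ncor1 at 0.17 ± 0.07. The 14 tested textbook targets of retinoic acid (20 listed) had a median of 0.10, with Tgm2 at 0.07 ± 0.06. All genes tested had a median of -0.00, and 1.39% of them passed. Every pathway list was chosen with earlier results of these data known, so the share of each list that passed is a description.

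**Figure D2:**
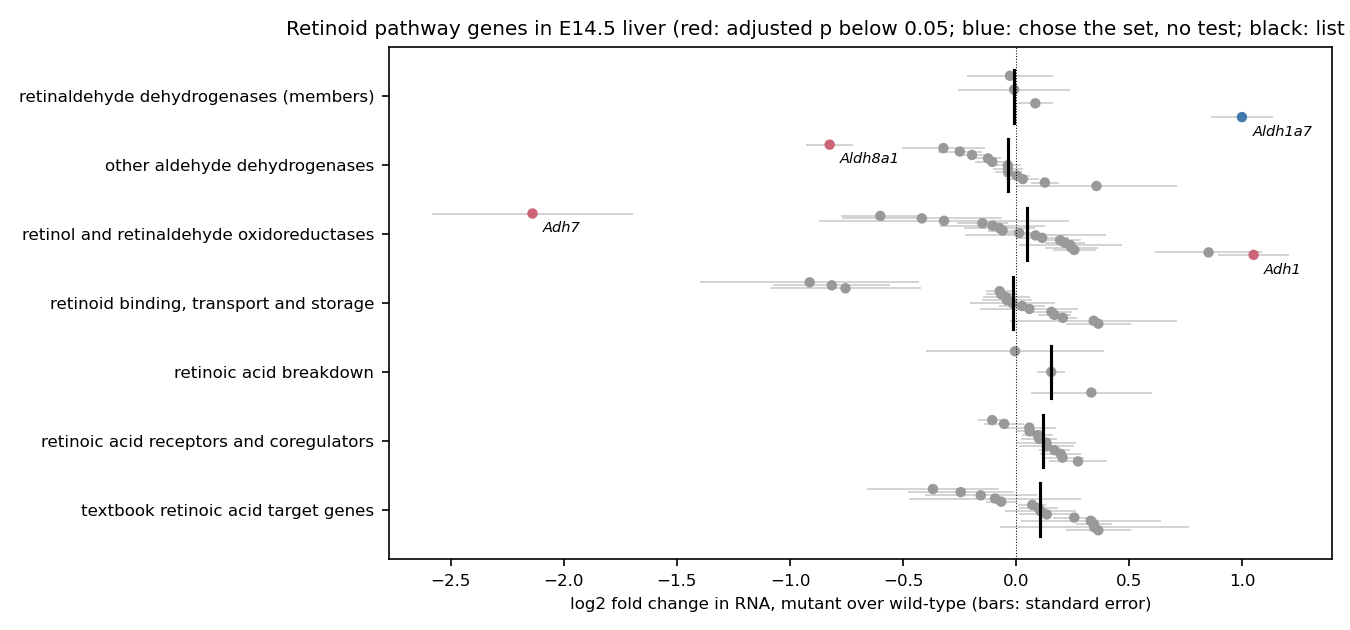
Log2 fold change in RNA (mutant over wild-type, with standard errors) of the tested genes of each retinoid list in E14.5 liver, with a black line at each list median (Aldh1a7 left out). Red points passed an adjusted p of 0.05 (Aldh8a1, Adh1 and Adh7), and Aldh1a7, in blue, is the gene that chose the set and carries no test.

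Of 88 marker genes of other cell types 75 were tested, of which 2 rose and 7 fell, while 1.39% of all genes tested passed. The marker lists were chosen with earlier results of these data known, so the shares within them are a description. The neutrophil list held the most calls, with 6 of 9 genes lower in the mutant (Elane, Ltf, S100a8, S100a9, Camp and Ngp) and summed levels of 912 to 1330 CPM in wild-type and 753 to 877 CPM in mutant liver. The summed hepatoblast markers ranged from 59231 to 70206 CPM in wild-type and from 72461 to 84157 CPM in mutant liver, although none of the 12 passed. Pf4 (megakaryocyte, 1 of 6 tested) and Sox9 (biliary, 1 of 6) rose, and Mc2r (adrenal and gonad, 1 of 3) fell, while Cyp11b1 and Cyp21a1 of that list and Prss1 of the pancreas and gut tube list had no read. No erythroid, mesenchymal, endothelial, macrophage or pancreas and gut tube marker passed (9, 13, 7, 8 and 2 tested). The summed levels also did not overlap for the endothelial (270.4 to 298 CPM in wild-type, 299 to 352 CPM in mutant), megakaryocyte (491 to 515, 580.1 to 650.4 CPM), biliary (19.6 to 26.5, 28.02 to 35.7 CPM), pancreas and gut tube (2.58 to 10.4, 1.40 to 2.46 CPM) and adrenal and gonad lists (33.8 to 37.2, 29.6 to 31.0 CPM), and overlapped for the erythroid, mesenchymal and macrophage lists. How often such sums separate over all genes was not counted, so these separations are a description. With DESeq2 the calls of Elane, Ltf and S100a9 were lost (adjusted p = 0.157, 0.0725 and 0.141). Of these 9 marker calls that of Camp was kept without each library in turn, and each of the other 8 was lost without mutant replicate 1 or mutant replicate 3 or either of them, some also without another library. The part of these markers in the differences of Aldh1a7, Aldh8a1, Adh1 and Adh7 was not tested.

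Besides Aldh1a1, the protein-coding genes that start within 500 kb of Aldh1a7 were Anxa1 and Tmc1. Anxa1, which encodes the phospholipid-binding annexin, starts 337 kb away beyond Aldh1a1 and had 874, 1406 and 904 reads in wild-type and 560, 732 and 701 reads in mutant liver. It fell by 0.62 ± 0.13 (SE) on the log2 scale (adjusted p = 0.0400), and the call was lost without wild-type replicate 1 or without any 1 of the 3 mutant replicates (adjusted p up to 0.157). With the replicate number as a block its adjusted p was 0.000697 by edgeR. Tmc1 was at 0 to 2 reads per library.

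Rlf itself had 918, 1094 and 982 reads in wild-type and 983, 1106 and 963 reads in mutant liver, a log2 fold change of 0.08 ± 0.07 (SE, adjusted p = 0.646). MommeD28 came from ENU mutagenesis, so counts over the whole gene do not check the genotypes.

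The genes with RNA most like that of Aldh1a7 over the 6 libraries, by Pearson's r of log2 CPM among 13635 genes of at least 1 CPM, were Tpd52, Rbfox2, Il17rd, Ctbs and Ankib1 (r between 0.988 and 0.999). Their log2 fold changes were smaller than that of Aldh1a7, from 0.19 ± 0.06 (Ankib1) to 0.44 ± 0.21 (Il17rd, SE). None passed in edgeR's main fit (adjusted p between 0.0502 and 0.359), and Rbfox2 passed with the replicate block (0.0332). They were picked for likeness to the values that chose Aldh1a7. As 249 genes had an r above 0.9 over these 6 points, which share their libraries, the order is a description. The r of Aldh1b1, Aldh1a2 and Aldh1a1 with Aldh1a7 was 0.39, 0.08 and 0.06.

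Methylation over the start windows fell into separate ranges. Levels are the share of reads called methylated, summed over CpGs that every one of the 12 libraries read 6 times or more, within 1 kb to either side of the start. Aldh1a2 and Aldh1a3 lay below 4% in every library and Aldh1b1 between 5.48% and 10.7%, whereas Aldh1a1 and Aldh1a7 lay between 39.8% and 76.9%. The last 2 rest on only 6 and 5 CpGs, with 59 to 369 reads per library, against 37, 96 and 152 CpGs at Aldh1b1, Aldh1a3 and Aldh1a2. The Aldh1b1 level mixes CpGs close to the start with CpGs of its flanks. Its CpG 3 bp after the start had group means of 0% to 1.98%, and that 583 bp after it 64.6% to 92.9%.

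At the Aldh1a7 start the level in E10.5 embryos was 76.9% and 69.0% in wild-type and 64.4% and 68.1% in mutant libraries. In E14.5 liver it was 50.9% and 55.3% in wild-type and 61.9% and 51.6% in mutant, and in E18.5 liver 67.9% and 55.6% in wild-type and 51.4% and 61.3% in mutant. The genotypes overlapped in both liver datasets, and in E10.5 embryos the mutants lay below. The average difference (mutant minus wild-type) over the 3 datasets was -2.82 points (adjusted p = 0.664), or -4.88 to -0.76 points without each library in turn, and that in E14.5 liver, the tissue of the RNA-seq, was 3.63 points (adjusted p = 0.8997). In E14.5 liver this difference turned to -1.54 points without E14.5 mutant replicate 1.

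At the Aldh1a1 start the level was 63.7% and 69.7% in wild-type and 67.1% and 72.8% in mutant E10.5 embryos. It was 39.8% and 44.1% against 49.2% and 47.6% in E14.5 liver, and 47.4% and 44.4% against 56.2% and 54.4% in E18.5 liver. The mutants lay above the wild types in both liver datasets, but the average difference of 6.38 points did not pass (adjusted p = 0.137). In E14.5 liver alone the difference was 6.46 points (adjusted p = 0.653).

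Over the start window of the CpG-rich Aldh1a2 the level was higher in the mutants, from a low base. It was 1.36% and 1.48% in wild-type and 2.22% and 3.24% in mutant E10.5 embryos, 2.75% and 2.60% against 3.71% and 3.43% in E14.5 liver, and 2.57% and 2.35% against 2.96% and 2.79% in E18.5 liver. The mutants lay above the wild types in each dataset, and the average difference was 0.87 points (adjusted p = 0.0322). The call held on leaving out E10.5 wild-type replicate 2, E10.5 mutant replicate 1 or E18.5 mutant replicate 2, and was lost on leaving out any of the other 9 libraries (adjusted p up to 0.0936). In wild-type and mutant, the 1 kb after the start was at 0.35% and 0.43% (E10.5), 1.25% and 1.48% (E14.5), and 0.91% and 1.47% (E18.5). The 1 kb before it was at 3.82% and 6.74%, 5.31% and 8.16%, and 5.56% and 5.38%. At E10.5 the CpG that differed most lay 667 bp before the start (20.8% and 51.8%). The start windows of Aldh1a3 and Aldh1b1 differed by 0.57 and 1.26 points and did not pass (adjusted p = 0.1495 and 0.341). The Aldh1b1 difference ran from 0.60 to 1.93 points without each library in turn. Aldh1a3 has another annotated coding start, 8282 bp from the one used, which this window does not cover.

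Over all genes 4.69% of 19926 start windows passed for the genotype averaged over the datasets, and 907 of those 934 were higher in the mutant, with a median difference of 0.41 points over all windows. The 1 member of 5 that passed stands against that share. The mutant mean was the higher in 70.8% of all start windows in E10.5 embryos, 70.7% in E14.5 liver and 64.9% in E18.5 liver. The share in which both mutants lay above both wild types was not counted. In E14.5 liver alone 0.115% of start windows passed and no member did. For a genotype difference that varies among datasets 0% passed by edgeR's test, with 727 windows at an unadjusted p under 0.05. The smallest such p among the members was that of Aldh1b1 (0.0780), where both E14.5 mutants lay below the wild types and both E10.5 and E18.5 mutants above.

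**Figure D3:**
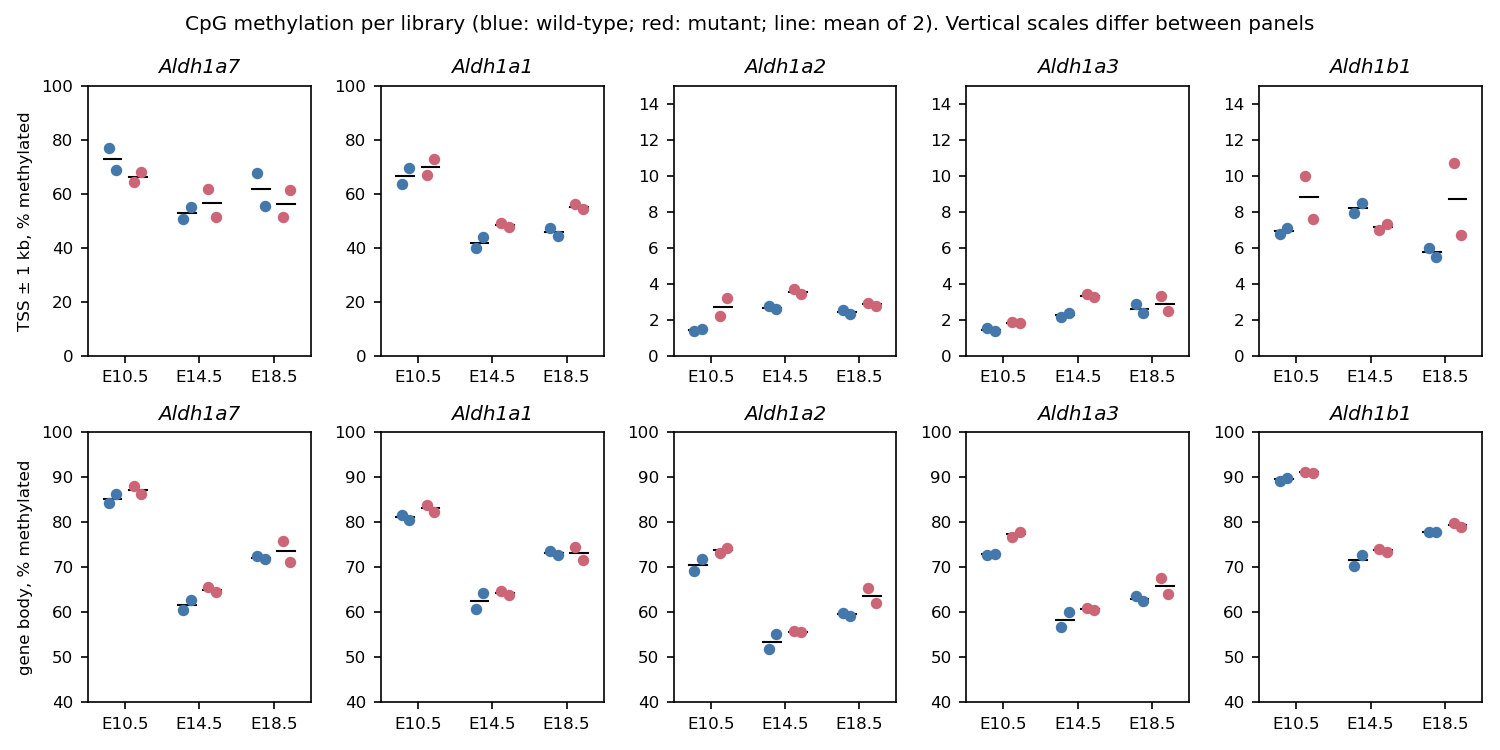
Methylation per library at the start sites (upper row) and gene bodies (lower row) of the 5 genes, in percent, by dataset, with wild-type in blue, mutant in red and a line at each mean of 2. Vertical scales differ between panels, and those of the lower row begin at 40%. Aldh1a1 and Aldh1a7 starts lie between 39.8% and 76.9% and the other starts below 11%, and every gene body is lowest in E14.5 liver.

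In the gene bodies (the annotated gene without its first 1 kb) mutant levels were mostly higher. The Aldh1a7 body was at 84.4% and 86.3% in wild-type and 88.0% and 86.3% in mutant E10.5 embryos. It was at 60.6% and 62.9% against 65.6% and 64.5% in E14.5 liver, and at 72.6% and 71.8% against 76.0% and 71.3% in E18.5 liver. The genotypes overlapped at E18.5, and at E10.5 wild-type replicate 2 (86.29%) and mutant replicate 2 (86.31%) were nearly equal. The average difference of 2.20 points did not pass (adjusted p = 0.120) except without E18.5 mutant replicate 2 (adjusted p = 0.00681). In E14.5 liver it was 3.32 points (adjusted p = 0.733).

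Aldh1a2 and Aldh1a3 passed over their bodies. The Aldh1a3 body was at 72.8% and 73.0% in wild-type and 76.7% and 78.0% in mutant E10.5 embryos, and the mutants also lay above at E14.5 and E18.5. Its average difference was 3.19 points (adjusted p = 0.0184), and the call was lost on leaving out 7 of the 12 libraries in turn (E10.5 wild-type replicate 1, E10.5 mutant replicate 2, E14.5 wild-type replicate 1, either E14.5 mutant or either E18.5 wild-type replicate). The Aldh1a2 body differed by 3.25 points (adjusted p = 0.0246), with mutants above wild types in each dataset, and the call held only without E10.5 wild-type replicate 2, E14.5 wild-type replicate 2 or either E18.5 mutant replicate. The Aldh1b1 and Aldh1a1 bodies differed by 1.81 and 1.24 points (adjusted p = 0.104 and 0.350), and Aldh1b1 passed without E18.5 mutant replicate 2 (adjusted p = 0.0198). The Aldh1a1 difference ran from 0.65 to 1.84 points without each library in turn.

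These differences stand on a general rise over gene bodies, since 15.6% of 18801 gene bodies passed, 2920 of those 2933 upwards, with a median difference of 1.55 points. The study states that global CpG methylation, averaged in genome windows, did not change without Rlf. That measure differs from the tests of gene bodies given here. The count ran from 926 without E10.5 wild-type replicate 1 to 10762 without E18.5 mutant replicate 2, and was 1119 without E14.5 wild-type replicate 1. The mutant mean was the higher in 81.3% of all bodies in E10.5 embryos, 87.4% in E14.5 liver and 87.6% in E18.5 liver. The share in which both mutants lay above both wild types was not counted for bodies either. Over all CpGs E18.5 mutant replicate 1 stood apart at 65.5% methylated, against 61.4% to 61.7% in the other E18.5 libraries. E14.5 wild-type replicate 1 was at 56.4%, against 58.5% to 60.3% in the other E14.5 libraries. In E14.5 liver alone 1.09% of bodies passed, and no member did. For a difference that varies among datasets 0.0532% of bodies passed, and no member did.

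Between wild-type datasets, from E10.5 embryo to E14.5 liver all 5 gene bodies were lower, by 23.6 points at Aldh1a7, 18.6 at Aldh1a1, 18.03 at Aldh1b1, 16.97 at Aldh1a2 and 14.6 at Aldh1a3, with adjusted p of at most 7.09e-15. This is the direction of the table, in which 93.4% of bodies passed with a median of -13.7 points. The start windows of Aldh1a1 and Aldh1a7 were lower by 24.7 and 19.8 points (adjusted p = 0.000118 and 0.00951), and the second call was lost without E10.5 wild-type replicate 1 (adjusted p = 0.106). Those of Aldh1a2 and Aldh1a3 were higher by 1.25 and 0.84 points (adjusted p = 0.00311 and 0.0238), the latter lost without any 1 of the 4 wild-type libraries compared. Over all start windows 53.7% passed.

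From E14.5 to E18.5 liver all 5 bodies were higher, by 10.7 points at Aldh1a1, 10.47 at Aldh1a7, 6.29 at Aldh1b1, 6.01 at Aldh1a2 and 4.73 at Aldh1a3 (adjusted p between 6.55e-05 and 0.0386), while 46.3% of all bodies passed with a median of 3.98 points. The calls of Aldh1a1 and Aldh1a7 were kept without each library in turn. That of Aldh1b1 was lost without E14.5 wild-type replicate 1 or E18.5 wild-type replicate 2, and that of Aldh1a2 without E14.5 wild-type replicate 1 or either E18.5 wild-type replicate (adjusted p up to 0.131 and 0.210). That of Aldh1a3 held only without E14.5 wild-type replicate 2 or either E18.5 mutant replicate (adjusted p up to 0.363 otherwise). Without E14.5 wild-type replicate 1 the count over all bodies was 185 in place of 8707. No member's start window passed, and 0.141% of all did.

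Along the genes, 158 tiles of 1 kb from 10 kb before to 10 kb after each member held enough CpGs. For the genotype averaged over datasets 11 of these passed, 5 at Aldh1a2 and 3 each at Aldh1a3 and Aldh1b1, or 6.96% against 2.03% of 1001224 tiles. Among tiles with at least 8 covered CpGs, 21611 of 581508 passed. Adjoining tiles are not independent, so the share at the members is a description. How the 11 calls fared without each library is not given here. None of the 16 tiles at Aldh1a1 or the 11 at Aldh1a7 passed, where 4 and 2 had an unadjusted p under 0.05 by edgeR. The tile with the highest difference was centred 2.90 kb into Aldh1a2, with 6 CpGs, and averaged 35.7% in wild-type and 53.2% in mutant E10.5 embryos, 34.5% and 48.9% in E14.5 liver, and 47.1% and 63.2% in E18.5 liver. At Aldh1b1 the called tiles were consecutive, centred from 5.39 to 3.39 kb before the start, with differences of 6.03, 7.43 and 6.64 points. In E14.5 liver alone no member tile passed by edgeR, against 0.142% of all tiles.

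**Figure D4:**
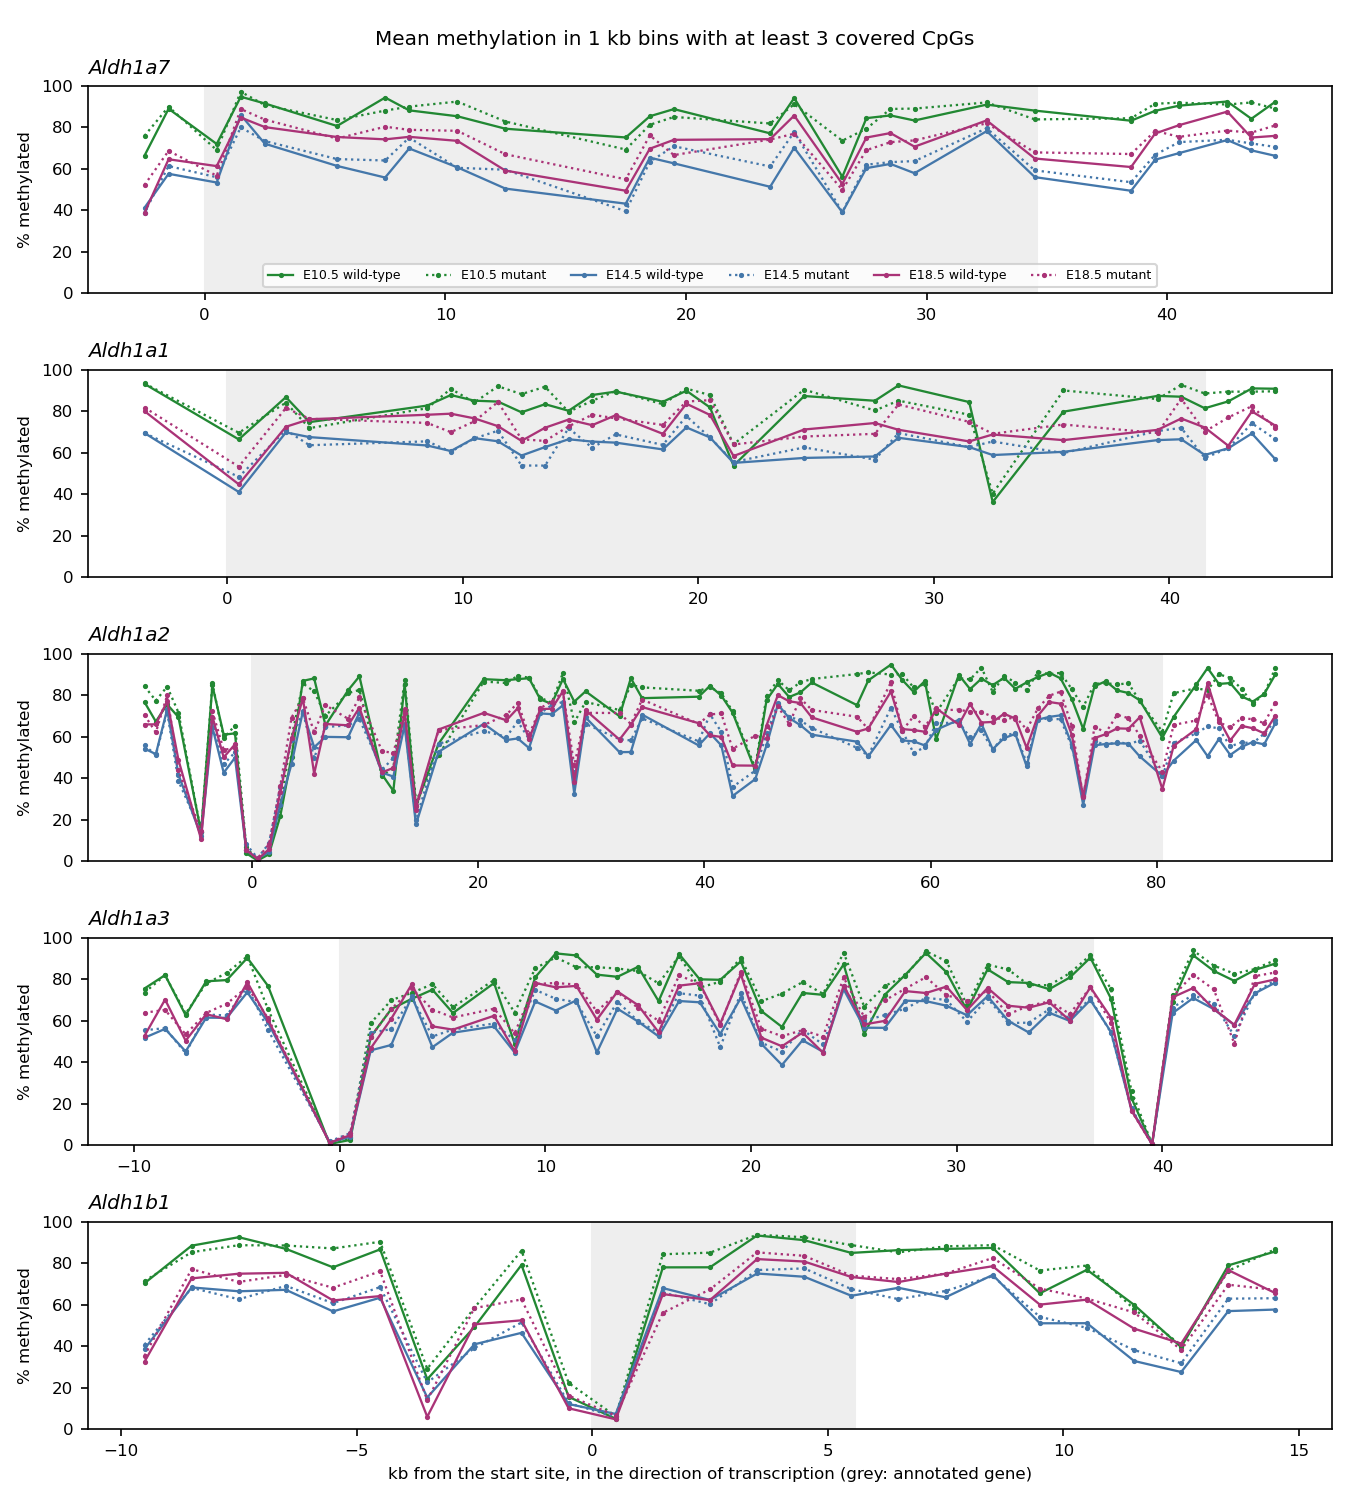
Mean methylation in bins of 1 kb along each gene, in percent, against distance from the start site in kb, with solid lines for wild-type, dotted lines for mutant, colours for the datasets and grey for the annotated gene. Aldh1a2, Aldh1a3 and Aldh1b1 dip to low levels at their starts and Aldh1a1 and Aldh1a7 do not. In both livers Aldh1a1 is still lowest in the bin after its start (41.1% in wild-type at E14.5). E10.5 embryos lie above both livers along most of each gene.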

How the data were processed

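The authors aligned the RNA-seq reads (50 bases, single-end) to mm9 with TopHat and counted them per Ensembl gene, without strand, with HTSeq, and deposited raw counts per gene. Bisulphite reads were aligned with Bismark and Bowtie2 to mm9 carrying FVB substitutions, and the authors deposited, per CpG, the percent methylated with the methylated and unmethylated read counts. Versions are not printed here. Libraries held 12928313 to 14621004 RNA counts and 319866478 to 710952704 reads over CpGs, and 0.0412% to 0.0775% of lambda cytosines read as methylated.

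RNA counts were tested with edgeR 4.0.16 (quasi-likelihood, TMM, filterByExpr with a minimum count of 10, R 4.3.3), with Benjamini-Hochberg adjustment over all genes and DESeq2 1.42.0 as an alternative. Values are from the fit without a replicate block. Same-numbered libraries deviated together (r = 0.140, 0.221 and 0.415 over genes), so the blocked count is given beside the main one. Methylated and unmethylated reads were summed over CpGs that each of the 12 libraries read 6 times or more, for regions with at least 5 such CpGs, and tested in 1 edgeR fit with a term per library. Listed positions fell on a CG of NCBIM37 in 97.8% of cases.

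Genes named are the members, the genes of each pathway list that passed or were the 2 most abundant per kilobase, marker genes that passed, neighbours within 500 kb, the 5 genes most like Aldh1a7, and Rlf. One of the most abundant genes is left out and not reported here. Genes under the filter or with no read were named after their values were seen. The members and lists were chosen with earlier results of these data known. The study describes the E14.5 bisulphite livers as from littermates. For the other libraries the litters are not given in the sources used here, so p-values measure the spread between these samples, and read intervals would cover counting error only.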

Additional observations from a re-analysis of the deposited data

How the results depend on the processing

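The RNA log2 fold change of Aldh1a7 ran from 0.90 to 1.07 over the alternatives, a direction that its choice on these libraries fixed. The RNA count of 197 genes became 532 with no filter, 460 with the replicate block, 257 with DESeq2 and 66 to 224 without each replicate. For start windows the averaged genotype count of 934 became 420 and 1410 with 500 bp and 2 kb windows and 1883 with the replicate block, and 453 to 1024 without each replicate. That in E14.5 liver (23) became 15 and 40 with minimums of 1 and 10 reads, 5 and 91 with the 2 windows, 371 with the replicate block, 0 with only the libraries compared, and 3 to 25 without each replicate. That for genotype by dataset became 1 with the 2 kb window and 6 with the block, and stayed 0 without each replicate. That between E14.5 liver and E10.5 embryo ran from 8934 to 10763 without each replicate and from 7358 (500 bp window) to 11977 (minimum of 1 read) under the other settings, and that between E18.5 and E14.5 liver (28) became 8 and 60 with the 2 windows, 1096 with the block, 11 with only the libraries compared and 6 to 21 without each replicate. For gene bodies the averaged count of 2933 became 1450 with the replicate block and 926 to 10762 without each replicate, and without each replicate the others ran from 116 to 471 in E14.5 liver, 5 to 83 for genotype by dataset, 17050 to 17823 between E14.5 liver and E10.5 embryo and 185 to 11736 between the livers. Tile counts of 20373 and 1424 became 1033 and 815 where a difference above 15 points was asked, and 9849 to 44596 and 355 to 2042 without each replicate. The cause was not tested. Replicate numbers did not pair the bisulphite libraries (r between -0.04 and 0.11), and under the block Aldh1a2 and Aldh1a3 bodies lost their averaged call (adjusted p = 0.0718 and 0.0562) and the Aldh1a3 start its stage call (0.0952). Other settings ended the calls of Elane, Ltf and S100a9 (DESeq2, adjusted p = 0.157, 0.0725 and 0.141, and for Elane also RLE scaling, 0.0502), of the Aldh1a2 start (minimum of 1 read, 0.0570), of the Aldh1a3 start between E14.5 liver and E10.5 embryo (2 kb window, 0.300) and of the Aldh1a3 body between the livers (minimum of 10 reads, 0.0509, or only the libraries compared, 0.0811). DESeq2 gave no adjusted p for Adh7. The few CpGs at the Aldh1a1 and Aldh1a7 starts limit what could be seen there, and Aldh1a3 RNA was under the filter on low counts.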
